A study of Mus musculus with 9 samples.

Results

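The MHC class III region of mouse chromosome 17 lies between the class II and class I antigen presentation genes and is among the most gene-dense stretches of the genome. It holds the inducible HSP70 genes Hspa1a and Hspa1b, which both encode the stress chaperone HSP72, and these were the genes deleted in the study. The 41 genes described here were chosen by name as members of that region, in genomic order from Notch4 to Ddx39b, out of 55403 gene rows in the counts. All 41 were found and are annotated as protein-coding. They span 689.44 kb of GRCm38, from chr17:34564268 to 35253707. Of the 41, 35 passed the filter on low counts and were tested among 14665 genes.

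Gene expression had been profiled by RNA-seq in mammary tumors of female C57BL/6 MUC1.Tg MMTV-PyMT mice, in which the polyoma middle T oncogene is driven by the mouse mammary tumor virus promoter. All mice also carried a MUC1 transgene. Tumors of the genotype Hspa1a/Hspa1b+/+ are called WT here and gave 4 libraries, at ages of 122, 132, 124 and 124 days. Those of the genotype Hspa1a/Hspa1b-/- are called KO and gave 5 libraries, at 122, 123, 120, 125 and 120 days. The study's stated question was which mRNAs differ between tumors with and without HSP72. The labels do not say how many animals stand behind the libraries of a group. Different ages within a group point to different mice. WT 3 and WT 4 share an age of 124 days, and KO 3 and KO 5 share 120 days. Whether libraries of the same age came from the same mouse is not stated. P-values therefore describe only how these libraries vary, which may be technical in part. The tumors were dissociated enzymatically before RNA extraction, and each library mixes all cells that remained. In such bulk samples fewer cells of a type and less RNA per cell cannot be told apart.

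Library size was 11500920 to 19136317 fragments, and genes received 4410399 to 6221181 of a library's fragments. Levels are given as CPM, which scales counts to the library's total over tested genes after TMM normalisation. A count of 0 allows up to 0.489 to 0.698 CPM (3 counts, per library), which covers counting error only. Levels of 12 luminal epithelial markers were read beside the mammary label. All 12 passed the count filter, and their summed level was 3881 to 7602 CPM in WT and 3671 to 4707 CPM in KO. No other tissue was compared, so this shows only that these genes were detected.

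HSP70 chaperones bind exposed hydrophobic stretches of proteins and release them in a cycle driven by ATP. Transcription of the inducible genes is switched on by the heat shock factor HSF1, which binds heat shock elements, repeats of the unit NGAAN in alternating orientation. The third HSP70 gene of the region, Hspa1l, is known as a testis gene that does not need heat. The other members have unrelated functions that range from complement and tumor necrosis factor to RNA helicases and a lysosomal sialidase.

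Promoter sequences are shown for the HSP70 genes because these were the only members whose levels passed the test. Each line gives the 250 bases before the gene's start, 5′ to 3′ on the gene's own strand, from RefSeq for GRCm38.p6. Capitals mark the inverted heat shock unit pair GAANNTTC.
Hspa1b: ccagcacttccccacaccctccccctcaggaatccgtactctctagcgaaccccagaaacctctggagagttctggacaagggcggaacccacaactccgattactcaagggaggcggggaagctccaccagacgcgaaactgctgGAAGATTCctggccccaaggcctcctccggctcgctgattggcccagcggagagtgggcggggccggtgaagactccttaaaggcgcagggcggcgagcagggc
Hspa1a: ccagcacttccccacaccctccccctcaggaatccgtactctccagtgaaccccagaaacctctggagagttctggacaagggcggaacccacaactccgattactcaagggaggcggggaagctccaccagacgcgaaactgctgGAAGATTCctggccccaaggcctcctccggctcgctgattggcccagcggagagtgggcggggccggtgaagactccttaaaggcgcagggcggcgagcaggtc
Hspa1l: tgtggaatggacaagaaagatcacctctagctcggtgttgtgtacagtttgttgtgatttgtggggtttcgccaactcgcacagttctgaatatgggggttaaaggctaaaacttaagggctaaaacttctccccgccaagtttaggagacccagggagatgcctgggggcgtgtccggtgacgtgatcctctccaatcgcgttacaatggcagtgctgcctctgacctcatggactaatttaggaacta
They lie at chr17:34959239-34959488 on the minus strand, chr17:34972157-34972406 on the minus strand and chr17:34972453-34972702 on the plus strand. The Hspa1a and Hspa1b windows were identical at 247 of 250 bases (98.8%), and each held 1 pair, which began 104 bases before the start. The Hspa1l window held no GAANNTTC on either strand. Its GC content was 49.6%, against 63.2% for Hspa1a and 63.6% for Hspa1b. Hspa1a and Hspa1l point away from each other, and their annotated starts are 547 bases apart. Promoters were matched for 30 of the 41 members. GAANNTTC was found on either strand in at least 1 window of 4 members, Hspa1a, Hspa1b, Ppt2 and Ddx39b, and in 6.69% of all 32851 promoter windows. Some members have several windows, so the count of members and the share of windows are unlike measures. With the other orientation, TTCNNGAA, counted as well, the share of all promoters was 12.8% and the same 4 members held a match. A match is only a match of letters, not a site shown to be bound.

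The deleted genes were low in every KO library, and Hspa1l moved the other way. Hspa1b and Hspa1a fell and Hspa1l rose, which made 3 of the 35 tested members called (edgeR quasi-likelihood test, Benjamini-Hochberg adjusted p under 0.05). Of all 14665 genes tested, 13 were called, or 0.0886%. Hspa1b and Hspa1a are the deleted genes, so their calls only check the genotype labels. DESeq2 called the same 3 members and no other.

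Hspa1b stood at 62.8, 81.1, 28.7 and 47.4 CPM in WT 1 to WT 4. In KO 1 to KO 5 it stood at 0.20, 0.16, 0.66, 0 and 0 CPM. The groups did not overlap, and the KO libraries together held 6 counts against 1043 in WT. Its log2 fold change was -7.89 ± 0.51 (SE), with an edgeR adjusted p of 5.31e-05. Hspa1b passed the count filter only through the WT libraries, and its fitted change depends on the prior count.

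Hspa1a was the lower of the deleted pair in WT, at 9.77, 9.20, 3.99 and 6.49 CPM. The KO libraries gave 0.39, 0.16, 1.64, 0.72 and 1.03 CPM, all under the WT range. This is 139 counts in WT and 23 in KO, and Hspa1a too passed the count filter only through the WT libraries. The log2 fold change was -3.16 ± 0.47 (SE), with an edgeR adjusted p of 0.0342. When libraries were left out singly, the call was kept in 2 of 9 fits, and the log2 fold change lay between -3.61 and -2.89. Its adjusted p was 0.0858 with age in the model and 0.306 without WT 1 and WT 4.

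The levels of the deleted genes may be understated. Fragments that map to several places form a separate entry and are in no gene's count. Of the 50-base windows of Hspa1a, 58.8% also occur in Hspa1b. The share found in any other gene on either strand, 66.3%, includes the gene Gm20481, which lies within Hspa1a on the opposite strand. Such overlap alone is not a second place in the genome. Fragments that fit both deleted genes can be missing from either count and from their sum, and how many was not measured. Summed over both genes, the level was 62.4 ± 24.7 CPM (SD, n = 4) in WT and 0.993 ± 0.772 CPM (SD, n = 5) in KO. The exact two-sided permutation p was 0.0159, the smallest that doubling the smaller tail can give here. Since both genes are deleted in KO, this p only checks the genotype labels.

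Hspa1l was low in WT, at 0.23, 0.21, 0.33 and 0.90 CPM, a total of 8 counts. The KO libraries gave 16.9, 20.4, 9.69, 16.6 and 13.7 CPM, a total of 442 counts. Every KO library lay above every WT library. The log2 fold change was 5.16 ± 0.40 (SE), with an edgeR adjusted p of 0.000166, and the call was kept in all 9 fits that left out 1 library. Hspa1l passed the count filter only through the KO libraries. It made up 0.231% to 1.63% of the counts of the HSP70 trio in WT and 80.8% to 98.4% in KO. Summed over the trio, the level was 62.8 ± 24.6 CPM (SD, n = 4) in WT and 16.4 ± 3.28 CPM (SD, n = 5) in KO. Fragments that fit both Hspa1a and Hspa1b can be missing from these shares and sums.

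**Figure D1:**
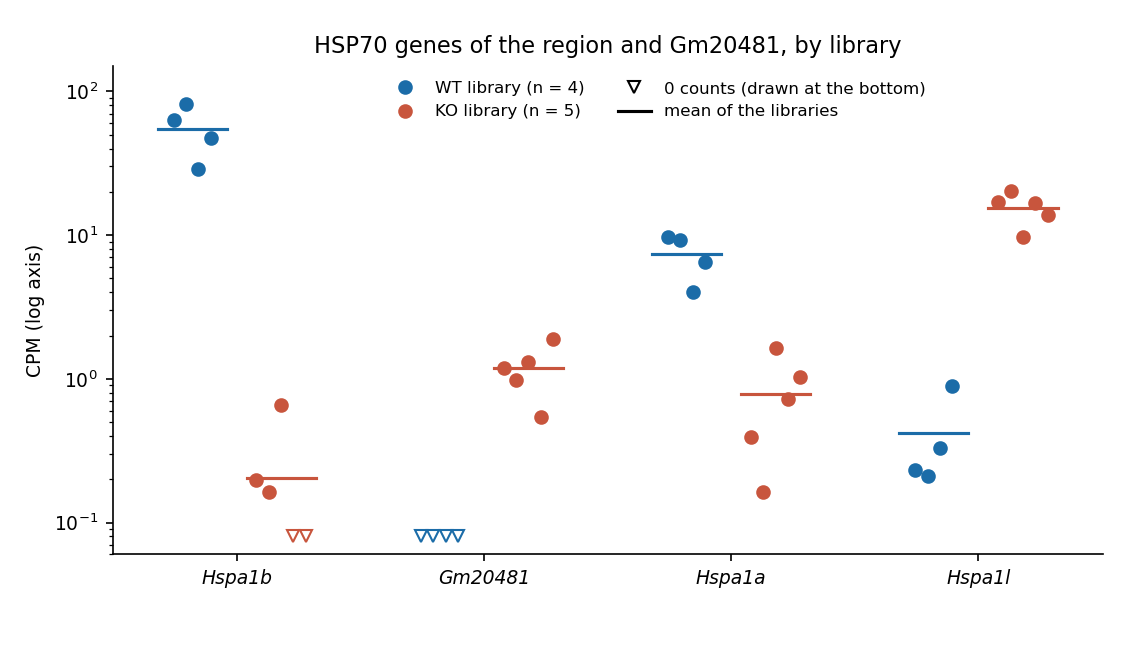
CPM on a log axis for the HSP70 genes of the region and the overlapping gene Gm20481, with 1 point per library (WT, n = 4; KO, n = 5), bars at the means and open triangles for 0 counts. Hspa1b and Hspa1a are lower in all 5 KO libraries than in all 4 WT libraries, while Hspa1l and Gm20481 are higher in all 5.

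The gene Gm20481 lies on the opposite strand at chr17:34969912-34972136, and all 564 of its exon bases fall inside the exon of Hspa1a. It is not a member and was singled out after its values were seen. No WT library had a count, and the KO libraries had 6, 6, 8, 3 and 11. Over the group this was 1.19 CPM in KO, at least 7.73-fold higher than the WT floor of 0.153 CPM (3 counts over the group). It did not pass the count filter. Of its own 50-base windows, 91.7% also occur in Hspa1a or Hspa1b. Because its exon bases lie within Hspa1a, this is not a share of fragments that map to several places. Likewise 71.9% of the exon bases of Hspa1l are shared with Gm10501 on the opposite strand. No source used here states whether the counting used strand, but the counts answer it. Of 436 genes whose exon bases all lie within exons of opposite-strand genes, 210 (48.2%) held counts, against 1 of 713 (0.14%) whose bases all lie within exons of same-strand genes. Reads were thus assigned by strand, and the counts of Gm20481 and Hspa1a, or of Gm10501 and Hspa1l, are of different strands. How many reads were assigned to the wrong strand was not measured.

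Outside the HSP70 genes no member was called. The other 32 tested members had log2 fold changes from -2.24 to 0.28 with a median of -0.07, against -0.00 for all genes tested. The sign of so small a median changed with the fit, and it was 0.14 with age in the model. Of the 32, 12 were positive and 20 negative, and 30 lay within 0.5 of 0. That is 93.75%, against 89.5% of all genes. The smallest adjusted p was 0.616 by edgeR and 0.344 by DESeq2. An unadjusted p under 0.05 was reached by 3 of the 32 (9.38%), Neu1, Clic1 and Ly6g6c, against 7.95% of all genes. Ranges of the libraries did not overlap for 1 of the 32, Neu1, and for 2.7% of all genes. 

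**Figure D2:**
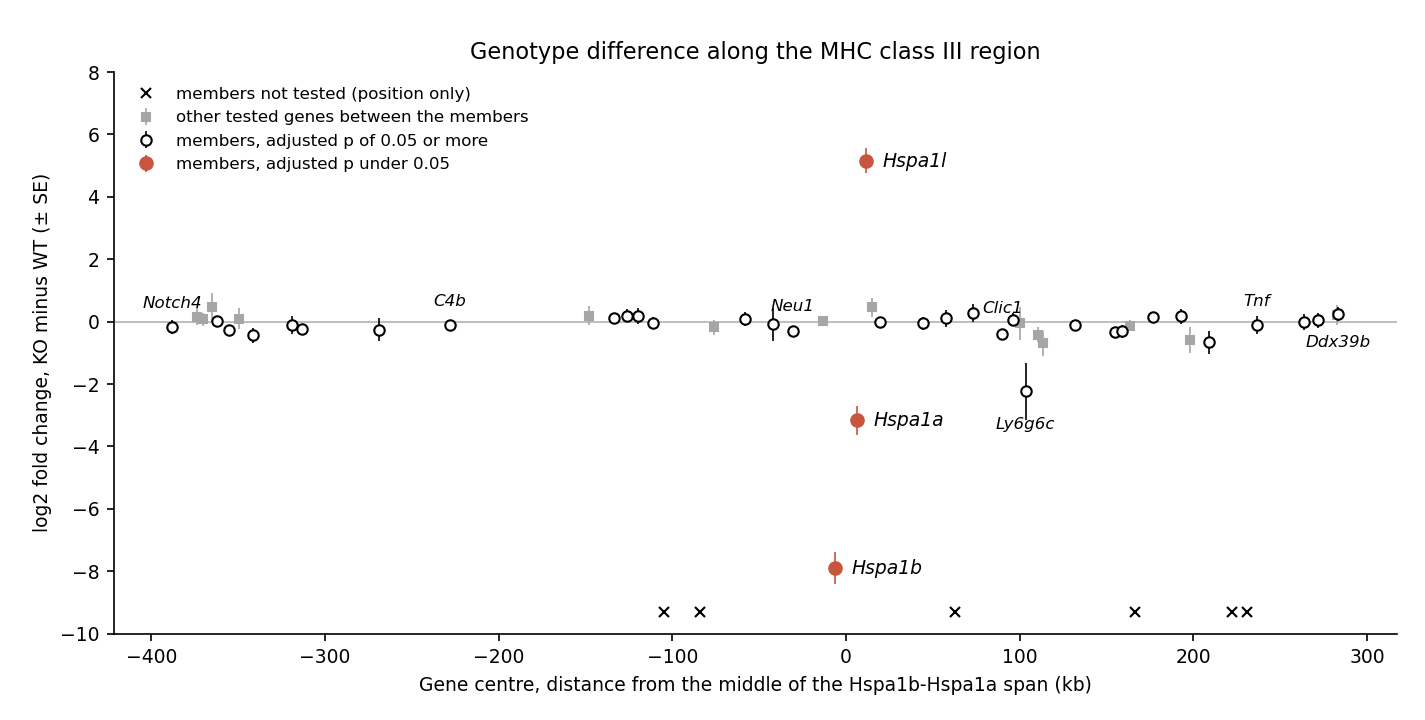
Log2 fold change (KO minus WT, ± SE) of each tested gene against its distance in kb from the middle of the span from Hspa1b to Hspa1a. Filled points are members with an adjusted p under 0.05, open points other members, grey squares the 14 other tested genes between them, and crosses mark where the 6 untested members lie. Hspa1b, Hspa1a, Hspa1l and Ly6g6c lie far from 0, and every other member lies between -0.67 (Aif1) and 0.28 (Msh5).

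The nearest tested members flank the HSP70 genes. Neu1 encodes the lysosomal sialidase, which removes sialic acid from glycoproteins, and ends 20.482 kb from Hspa1b. Its level was 97.7, 72.9, 69.1 and 68.5 CPM in WT and 65.2, 62.9, 57.1, 56.7 and 67.7 CPM in KO. The groups did not overlap, although WT 4 and KO 5 lay close together, and WT 1 was the high library. The log2 fold change was -0.31 ± 0.13 (SE), with an edgeR unadjusted p of 0.0364 and an adjusted p of 0.616. Without WT 1 it was -0.18. On the other side, Lsm2, a subunit of the ring that binds U6 snRNA, begins 2.576 kb from the end of Hspa1l. Its level was 11.4, 8.78, 11.6 and 11.9 CPM in WT and 11.8, 8.80, 10.5, 11.7 and 11.3 CPM in KO. The ranges covered each other, and the log2 fold change was -0.01 ± 0.17 (SE). The direction of so small a value changed with the scaling.

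Clic1 and Ly6g6c lay further out. Clic1, a chloride intracellular channel protein, stood at 173.0, 159.7, 137.1 and 126.9 CPM in WT. In KO it stood at 108.3, 107.1, 99.2, 119.5 and 135.9 CPM, so that KO 5 overlapped the WT range. Its log2 fold change was -0.39 ± 0.13 (SE), with an edgeR unadjusted p of 0.0144 and an adjusted p of 0.616. Ly6g6c, a GPI-anchored surface protein of the Ly6 family, was at 3.26, 37.0, 4.65 and 0.90 CPM in WT and 2.17, 3.42, 0.16, 2.53 and 3.76 CPM in KO. WT 2 stood far above the other 8 libraries. The log2 fold change was -2.24 ± 0.90 (SE), with an edgeR adjusted p of 0.616, and it was -0.31 without WT 2.

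**Figure D3:**
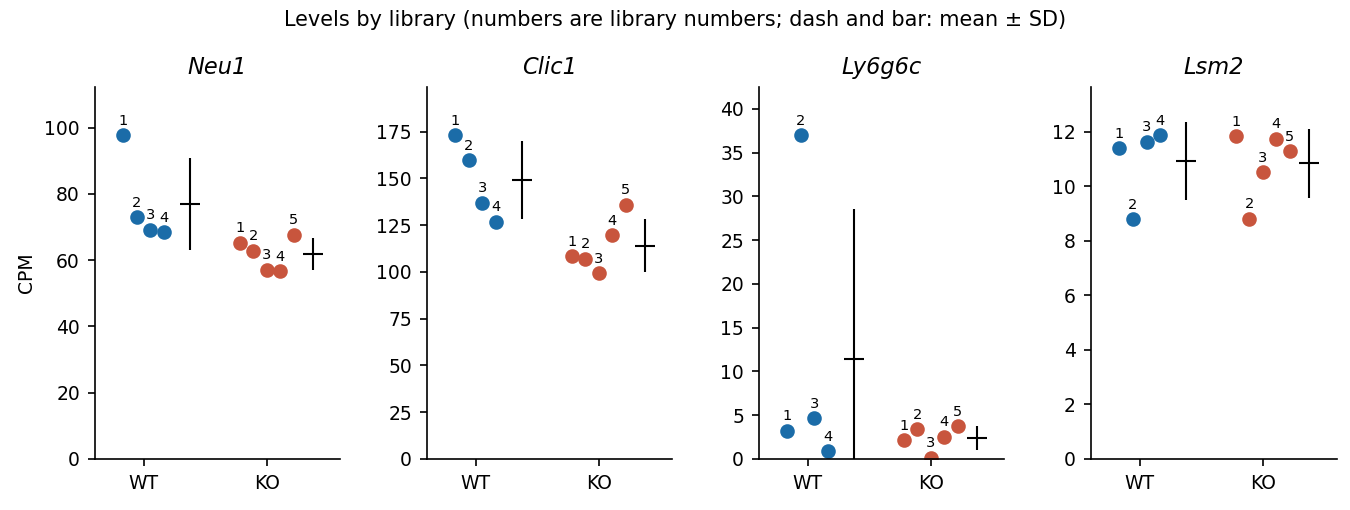
CPM by library for Neu1, Clic1, Ly6g6c and Lsm2, with library numbers beside the points and the mean ± SD (WT, n = 4; KO, n = 5) as dash and bar. WT 1 is the high library for Neu1 and WT 2 for Ly6g6c, at 37.0 CPM, and the Lsm2 ranges coincide.

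Complement was represented by 3 members. C4b, whose cleavage fragment attaches covalently to targets, was abundant at 132.9 to 254.9 CPM in WT and 149.3 to 184.0 CPM in KO. Its log2 fold change was -0.11 ± 0.17 (SE). Its near copy C4a shares 34.6% of its 50-base windows, and how many C4b reads were lost to this was not measured. C2, the protease of the classical pathway, and Cfb, its counterpart in the alternative pathway, did not pass the filter. Cfb averaged 0.787 CPM in WT and 0.416 CPM in KO, and C2 averaged 1.45 and 1.79 CPM. Their exons overlap those of the read-through gene Gm20547, for 79.5% of the bases of Cfb and 42.8% of those of C2.

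The tumor necrosis factor cluster and its leukocyte neighbours had 5 members, of which 3 were tested and none was called. Tnf, the cytokine itself, averaged 9.72 ± 4.36 CPM (SD, n = 4) in WT and 8.99 ± 1.89 CPM (SD, n = 5) in KO. Ltb, the membrane anchor of lymphotoxin, averaged 1.04 and 0.751 CPM and was not tested, nor was Lst1, a leukocyte gene. Nfkbil1 had a log2 fold change of -0.00. Aif1, a calcium-binding protein of macrophages, had the largest value of the 3, -0.67 ± 0.37 (SE), with an edgeR unadjusted p of 0.101, and it was -0.23 without WT 4. Beside it, the 13 tested macrophage markers of 14 listed all had negative log2 fold changes, with a median of -0.61. The median was -0.41 without WT 4 and -0.90 without KO 5. Their summed level was 539 to 860 CPM in WT and 284 to 720 CPM in KO, and none was at 0 in every library. Their part in the value of Aif1 was not tested.

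The 10 members that act in transcription, RNA handling or chromatin were all tested, and none was called. Their median log2 fold change was 0.14, with 7 positive and 3 negative. The range ran from -0.30 for Gpank1 to 0.28 for Msh5, a meiotic mismatch repair homologue. The group includes the histone H3 lysine methyltransferase Ehmt2 (0.08), the exosome helicase Skiv2l (0.18), the decapping enzyme Dxo (0.19), the export helicase Ddx39b (0.24) and the elongation factor subunit Nelfe (-0.05). Prrc2a, an RNA-binding protein, was the most abundant member per length.

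Of the 8 members placed with protein handling and signalling, 7 were tested and none was called, with a median of -0.05. Bag6, which guards newly made membrane proteins, had a log2 fold change of 0.14. Vars, the valyl-tRNA synthetase, had -0.05, the ubiquitin ligase Rnf5 0.02 and the membrane-bound stress factor Atf6b -0.22. Csnk2b, the regulatory subunit of casein kinase 2, had -0.34 (edgeR unadjusted p = 0.0607). Sapcd1 was not tested, with 3 counts in WT and 14 in KO.

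The 9 members for lipids, lysosomes, transport and small-molecule enzymes had a median of -0.19 over the 8 tested. Apart from Neu1 and Clic1, the values ran from -0.44 for the lysosomal thioesterase Ppt2 (edgeR unadjusted p = 0.0771) to 0.07 for the dimethylarginine hydrolase Ddah2. Agpat1, an acyltransferase of phospholipid synthesis, had -0.27, and the proton pump subunit Atp6v1g2 had 0.04. Apom, a carrier of sphingosine phosphate in plasma, had 1 count in WT and 5 in KO and was not tested.

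The surface and matrix members were all negative but not called. Notch4, a receptor of endothelial cells, had a log2 fold change of -0.17 ± 0.22 (SE) at 13.7 CPM in WT. Tnxb, the matrix protein tenascin X, had -0.26 ± 0.36 (SE) and ranged from 9.77 to 18.35 CPM in WT and from 4.10 to 18.96 CPM in KO. KO 3 was the lowest, and the log2 fold change was -0.03 without it. Beside Notch4, all 12 tested endothelial markers of 13 listed were negative, with a median of -0.77 (-0.21 without WT 1) and a summed level of 89.9 to 201 CPM in WT and 38.98 to 112 CPM in KO. Beside Tnxb, 10 of the 11 tested fibroblast markers of 12 listed were negative, with a median of -0.75 (-0.50 without WT 1 and -0.88 without KO 4). Their sums were 822 to 1160 CPM in WT and 351 to 712 CPM in KO. No marker of either list was at 0 in every library, and their part in these values was not tested.

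The members spanned a wide range of levels in WT per kb of exon bases not shared with another gene on the same strand. For Ddx39b only the larger of its overlaps, with Mir8094, was taken out. Sequence repeated elsewhere was kept, such as the 58.8% of Hspa1a windows and 62.3% of Hspa1b windows found in the other gene. The levels per kb of Hspa1a and Hspa1b may therefore be understated. Prrc2a stood at 88.9 CPM per kb, followed by Clic1 at 82.9, Ddx39b at 62.0, Vars at 54.6, Ehmt2 at 41.3 and Bag6 at 37.7. Apom was the lowest. Hspa1b ranked 14 of 41 in WT, at 19.6 CPM per kb, and 41 in KO. Hspa1a went from rank 31 to 39. Hspa1l went from rank 39, at 0.169 CPM per kb, to 21, at 6.25.

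**Figure D4:**
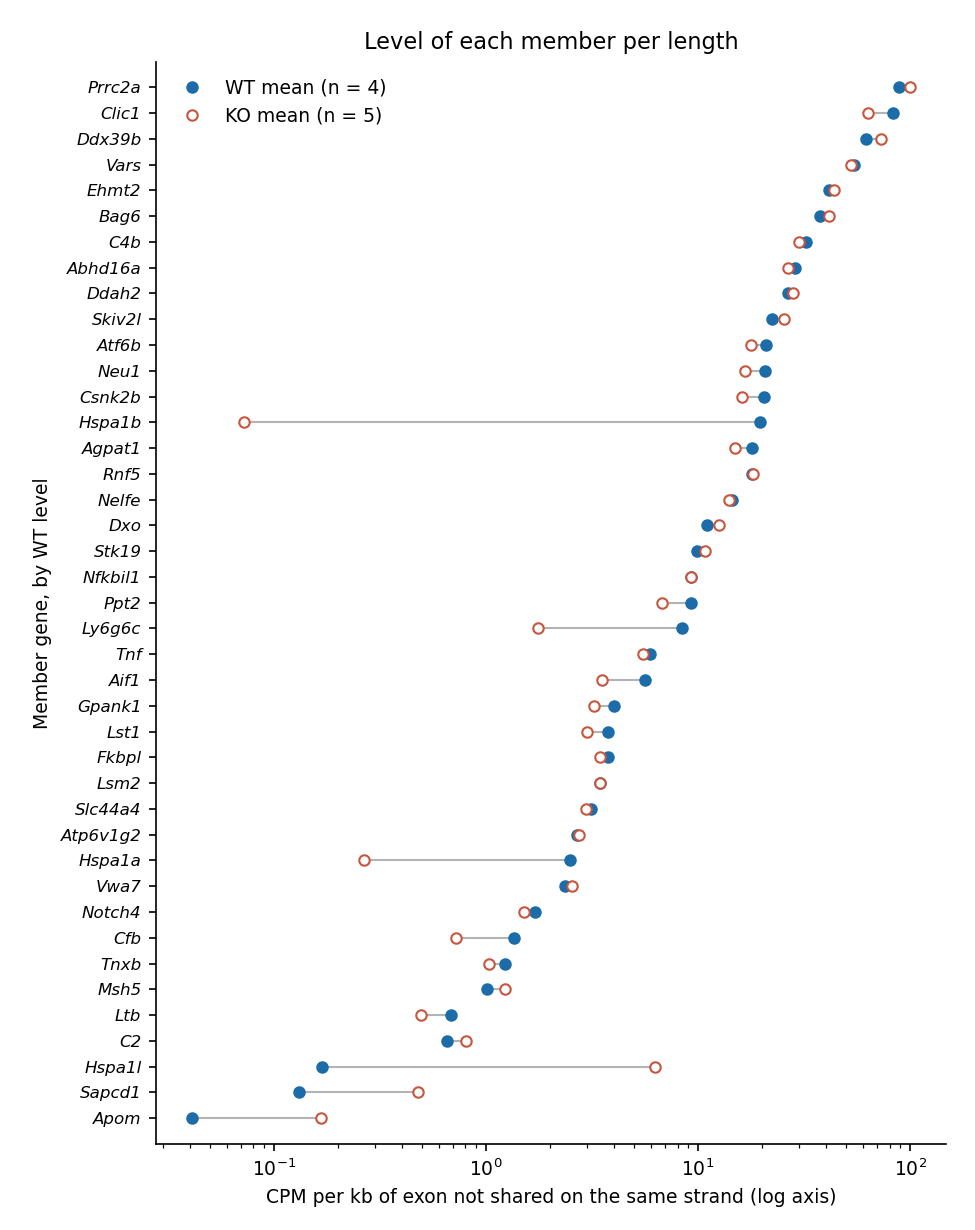
Mean CPM per kb of exon not shared on the same strand, on a log axis, for all 41 members, ordered by the WT mean (filled, n = 4), with the KO mean (open, n = 5) joined by a line. The long lines belong to Hspa1b, Hspa1a and Hspa1l. Ly6g6c, whose WT mean rests on WT 2, has the next longest among tested members.

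Levels of the members varied together between libraries of one genotype. KO 3 was the lowest KO library for 24 of the 32 tested members outside the HSP70 genes (75%), against 31.6% of all genes. WT 1 was the lowest WT library for 17 (53.1%), against 35.5% of all genes. The median deviation of the 32 from their means over all 9 libraries, on the log2(CPM + 0.5) scale, was -0.43 in KO 3 and -0.22 in WT 1. It was 0.22 in WT 2 and 0.18 in WT 4. The medians over all genes were within 0.01 of 0. KO 3 and WT 1 also had the lowest shares of unmapped fragments, 10.99% and 12.2%, and KO 3 had the highest share outside annotated features, 50.4%. Their part in the members' levels was not tested. The median log2 fold change of the 32 was -0.00 without KO 3 and -0.10 without WT 1.

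**Figure D5:**
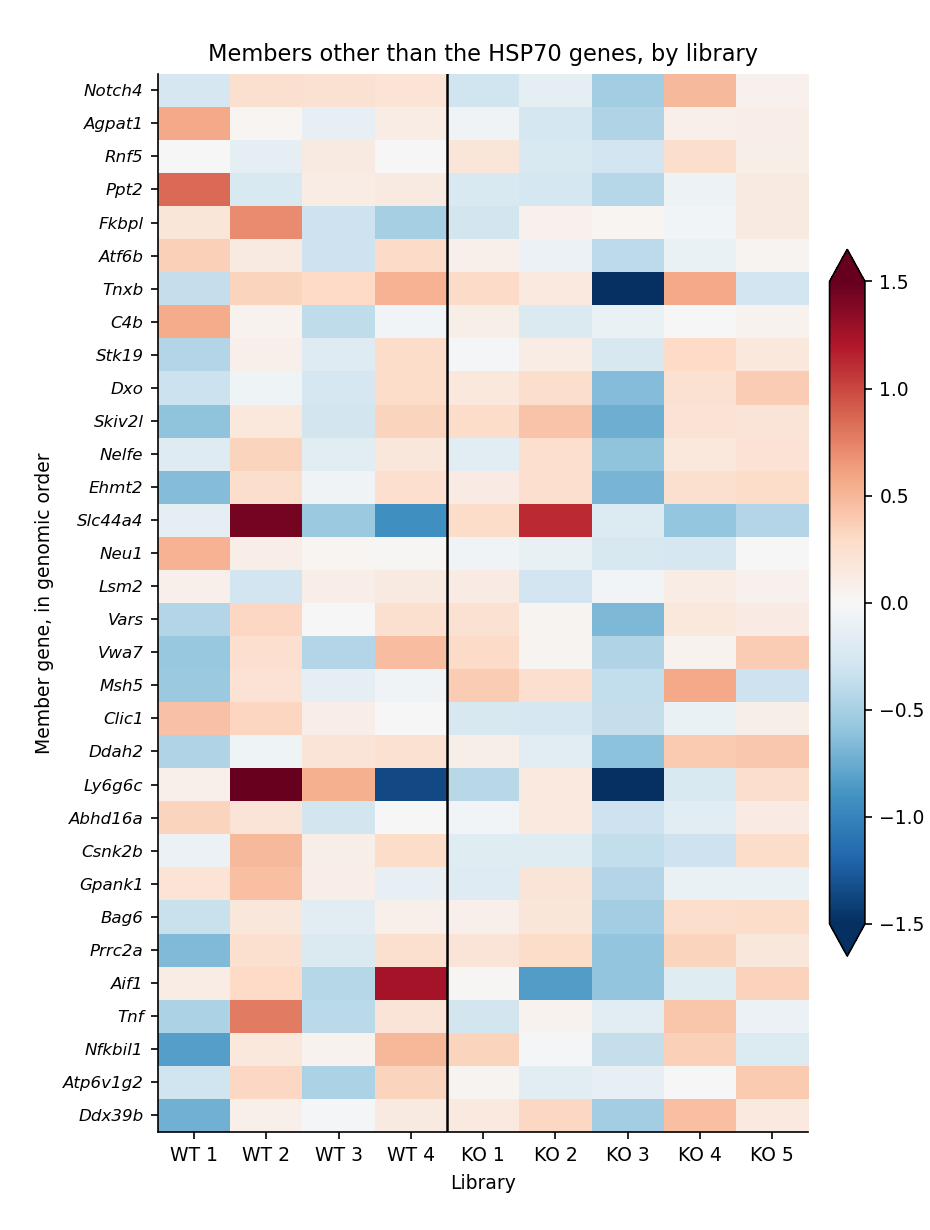
Each tested member outside the HSP70 genes in genomic order (rows) by library (columns), coloured by log2(CPM + 0.5) minus the mean of the 9 libraries, with a line between WT and KO. Blue cells collect in KO 3, at a median deviation of -0.43 from the mean of the 9 libraries, and in WT 1.

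Outside the HSP70 trio, no tested gene near the deleted pair was called in the main edgeR fit. Leaving out the trio but keeping the other members, 15 genes were tested within 100 kb of the pair and 88 within 1 Mb. Within 5 Mb there were 177 and within 20 Mb 472, with 0 called at any of these distances. Unadjusted p under 0.05 was reached by 3, 12, 23 and 40 of them (20%, 13.6%, 12.99% and 8.47%), against 7.95% of all genes. Each distance includes the shorter ones, and the 3 within 100 kb were the members Neu1, Clic1 and Ly6g6c. DESeq2 called 1 gene within 20 Mb, Adamts10, a secreted metalloprotease 1402.65 kb away, at a log2 fold change of 1.02. Adamts10 was also called by edgeR without a count filter and without KO 3. Another 48 annotated genes lie between the members, of which 14 were tested and 0 had an unadjusted p under 0.05.

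Genes elsewhere that act with the members were read from lists by pathway. Of 109 listed, 99 were tested, 0 were called by edgeR or DESeq2, and 6 (6.06%) had an unadjusted p under 0.05. Among 24 tested complement genes the median log2 fold change was -0.32. It was -0.17 without WT 1, -0.19 without KO 3 and -0.09 with WT 1 and WT 4 both left out. The 3 with the smallest p were the inhibitor Clu (-0.66), the recognition subunit C1qc (-0.75) and the protease inhibitor Serping1 (-0.82). Over the 17 tested genes of tumor necrosis factor and lymphotoxin signalling the median was 0.03, with values from -0.01 to 0.11 when libraries were left out singly. Their smallest p belonged to the receptors Tnfrsf1a (-0.37) and Ltbr (-0.36) and the adaptor Traf2 (0.22). For 17 Notch genes the median was -0.10 (-0.23 without WT 3 and -0.02 without WT 2), and those with the smallest p were Ncstn (-0.33), Hes1 (-0.36) and Dll4 (-0.44). The 27 partners in transcription and RNA handling had a median of 0.02, from -0.01 to 0.06 with single libraries left out, with Lsm1 (-0.39), Ttc37 (0.23) and Thoc5 (0.18) named by the same rule. The 14 partners in protein handling and the lysosome had a median of -0.18, or -0.05 without WT 1, with Neu3, a plasma membrane sialidase (1.04), Glb1 (-0.48) and Atf6 (-0.36) named.

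Markers of the cell types a dissociated tumor can hold gave 0 calls by edgeR. An unadjusted p under 0.05 was reached, always with lower levels in KO, by 7 of 11 fibroblast, 5 of 12 luminal, 3 of 12 endothelial, 2 of 13 macrophage and 1 of 4 adipocyte markers tested. Of all genes tested, 7.95% reached it in either direction. Beside the lists above, the medians were -0.47 over 12 luminal, -0.26 over 8 basal, -0.01 over 4 adipocyte, -0.08 over 4 T and NK cell, -0.34 over 3 dendritic cell and 0.18 over 2 neutrophil markers, and the 1 tested B cell marker, Ighm, had -0.39. With KO 5 left out, the T and NK cell, B cell, dendritic cell and neutrophil values were -0.60, -0.62, -0.61 and -0.42. The basal median was 0.12 and the adipocyte median 0.43 without WT 2. The genes with the smallest p per list were Cd14 (-0.89), C1qc, which is also on the complement list, and Tyrobp (-0.66) for macrophages. For fibroblasts they were Col1a2 (-1.12), Col1a1 (-1.06) and Col3a1 (-0.75), for endothelium Flt1 (-0.82), Emcn (-1.24) and Tie1 (-0.94), and for luminal cells Muc1 (-0.76), Cldn3 (-0.50) and Elf5 (-0.34). DESeq2 called Cd14, Col1a2, Col1a1, Muc1 and the adipocyte gene Lpl (-1.21) among these, all lower in KO. It called 68 of all 14665 genes.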

How the data were processed

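RNA-seq counts of 9 mammary tumor libraries were analysed, 4 WT and 5 KO, grouped by the genotype in the labels. Trimmomatic 0.36, FastQC 0.11.5, STAR 2.5.4a and GRCm38 were used by the authors, per the submitters' processing notes. The authors deposited raw counts per gene. Neither annotation release nor strand setting is stated in those notes or labels, and use of strand was checked on genes that lie within others. The libraries were stranded, ribosome-depleted and read from both ends, per the labels' protocols. Entries that name no gene took 11.0% to 27.1% (unmapped), 5.50% to 9.53% (multimapping), 34.0% to 50.4% (no feature) and 0.971% to 1.23% (ambiguous) of a library's fragments and were left out of library sizes and tests. Of 55401 mouse gene identifiers, 55141 matched a symbol in the GENCODE annotation of GRCm38.

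KO was compared with WT in R 4.3.3 by the quasi-likelihood test of edgeR 4.0.16 (glmQLFit and glmQLFTest), using TMM factors, filterByExpr and no term but genotype. P-values were two-sided and adjusted by Benjamini-Hochberg over 14665 genes, and those under 0.05 were called. The SE is the log2 fold change over the square root of F. The summed HSP70 level was tested by exact permutation with scipy 1.17.1, doubling the smaller tail. The fits were tested on simulated data. Alternatives were DESeq2 1.42.0, limma-voom (limma 3.58.1), other scaling and count filters, library number as a block, age, each library left out, and WT 1 and WT 4 left out together, which earlier results showed to have the highest casein counts.

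The members, lists and tests were chosen with earlier results of these data known. Every library is given for the HSP70 genes, for members called, with an unadjusted p under 0.05 or with groups that do not overlap, and for the nearest tested neighbours. Other members are given by role, and up to 3 genes with the smallest p from each list. Windows of 50 bases were compared between annotated transcripts to find shared sequence.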

Additional observations from a re-analysis of the deposited data

Results flagged for a closer look

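Members were screened for a single library far from the rest, in 82 groups of 4 WT or 5 KO values. Of these, 11 stood out. The nominal rate of about 1 in 20 holds for independent values. Members varied together between libraries, and the share over all genes is not given, so the 11 cannot be read as an excess. In KO, KO 3 was the low library for 5 members: Dxo at 14.3 CPM, Skiv2l at 68.3 CPM, Ehmt2 at 139.6 CPM, Vars at 183 CPM and Prrc2a at 467 CPM. In WT, WT 1 was low for Notch4 at 10.5 CPM and high for Neu1 at 97.7 CPM. WT 2 was low for Lsm2 at 8.78 CPM and high for Ly6g6c at 37.0 CPM. KO 5 was high for Csnk2b at 44.5 CPM. For Apom, WT 3 was high at 0.17 CPM, which is 1 count. The gene Gm20481, outside the tested genes, had 34 counts over the KO libraries and 0 over the WT libraries.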

How the results depend on the processing

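Hspa1b and Hspa1l kept their direction and call under every alternative in which they were fitted. Members called numbered 3 or 2, and 2 where Hspa1a was not called, was under a mean count of 50 or was merged with Hspa1b. The median log2 fold change of the other members was -0.12 to 0.04 with each library left out, 0.01 by limma-voom and 0.14 with age as a covariate, so its sign was not stable. The Hspa1a log2 fold change was -3.16 with age as a covariate (edgeR adjusted p = 0.0858), -3.23 with library number as a replicate block (0.170) and -2.998 without WT 1 and WT 4 (0.306), and it ranged from -3.61 to -2.89 with each library left out. Same-numbered libraries had correlations of -0.02, 0.38, 0.11 and 0.38. Among KO 1 to KO 4, the best match of WT 2, WT 3 and WT 4 was the library of the same number, and that of WT 1 was KO 3. The main fit did not take the numbers to pair the libraries, and whether they mark pairs was not tested. The summed level of Hspa1a and Hspa1b differed by -60.5 CPM without WT 1 and WT 4, where the exact permutation p is 0.0952, the smallest that doubling the smaller tail can give there. With the absolute difference of means as the statistic, a choice made after seeing the data, the exact permutation p was 0.00794 over all libraries and 0.0476 without WT 1 and WT 4. Each of these permutation p-values only checks the genotype labels, since both genes are deleted in KO. The Lsm2 log2 fold change turned positive with library totals only (0.0482), upper quartile factors (0.00983) and without WT 1 and WT 4 (0.0748), and ranged from -0.105 to 0.0547 with each library left out. Genes called within 20 Mb numbered 1, Adamts10, by DESeq2, limma-voom, without a count filter and without KO 3, and otherwise 0. All genes called numbered 13 by edgeR, 68 by DESeq2, 19 by limma-voom, 29 without a count filter and 6 where the mean count had to reach 50. Depth limits Hspa1l in WT, Hspa1a and Hspa1b in KO, and the 6 members under the count filter.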
